A study of Leucocroton havanensis and Lasiocroton microphyllus with 3 samples.

Results

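The contigs described here are those that took the most reads in leaves of both Leucocroton havanensis and Lasiocroton microphyllus. The first is a nickel hyperaccumulator, a plant whose leaves hold nickel in large amounts. The second is a relative labelled as not accumulating nickel. Both belong to the Euphorbiaceae. A contig is a transcript sequence assembled from reads without a genome. Contigs were ranked by read count in each field leaf library, and the 103 contigs among the first 200 of both rankings were taken, out of 58990 contigs in all (0.175%). The read counts themselves chose these contigs, so their high counts in both libraries are a description and not a finding.

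The L. havanensis group was 1 library of field leaf and the L. microphyllus group was 1 library of field leaf, with 94247756 and 76372207 counts. Both were polyA RNA libraries of wild plants from serpentine scrub and limestone gallery forest, habitats that the labels do not tie to a species, and the labels give no genotype, plant age or number of plants per library. The plants came from separate sites in separate years, so site and year cannot be told apart from species. Another sample, L. havanensis cultured in vitro on medium with 500 mg/L NiSO4, is not analysed here, but its reads were assembled into the contigs on which both field libraries were counted. With 1 library a species, no test between species was possible and no p-value is printed. Intervals of counts, shares and folds are at 95% and reflect counting error alone, and reads copied by PCR are not separate molecules. Limits of a median over contigs are also at 95%, but describe the spread over contigs and not variation between plants.

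Leaf messenger RNA of green plants is dominated by a small set of nuclear genes. In many plants these include genes for the small subunit of Rubisco, the enzyme that fixes carbon dioxide, and for the chlorophyll-binding proteins that harvest light. Whether any contig described here is such a gene is not known, since the files do not pair contigs with gene names. Leaf markers could not be looked up for the same reason. Contigs are therefore given by rank, and 4 of them by identifier. Counts were not divided by transcript length, so an order of contigs within a library is an order of reads and not of transcript number.

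The shared contigs held similar shares of both libraries. They took 20142354 counts in L. havanensis, which was 21.37% of that library (interval 21.3634% to 21.3800%). In L. microphyllus they took 17264628 counts, which was 22.61% (22.5965% to 22.6153%). The whole list of 200 held 28.8% in L. havanensis, against 32.5% in L. microphyllus. The remainder came from 97 contigs on the L. havanensis list alone, with 7.41% of that library's counts, and from 97 on the L. microphyllus list alone, with 9.87%. These shares need no scaling between libraries. In whole leaves, fewer cells of a type and less RNA per cell cannot be told apart.

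A minority of the set's contigs held most of its counts. In L. havanensis, counts of the shared contigs ran from 43300 to 761529 with a median of 136963. In L. microphyllus they ran from 36212 to 968390 with a median of 108948. The 10 highest shared contigs of each library held 29.5% of the set's counts in L. havanensis, against 30.8% in L. microphyllus, and the 25 highest held 56.0% and 55.3%. The reads of the set were thus spread over its members about as unevenly in one library as in the other. Of the 102 pairs of neighbours in the order of counts, 38 within L. havanensis and 24 within L. microphyllus differed by less than 1.96 standard errors of counting, so their order within a library is not resolved.

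**Figure D1:**
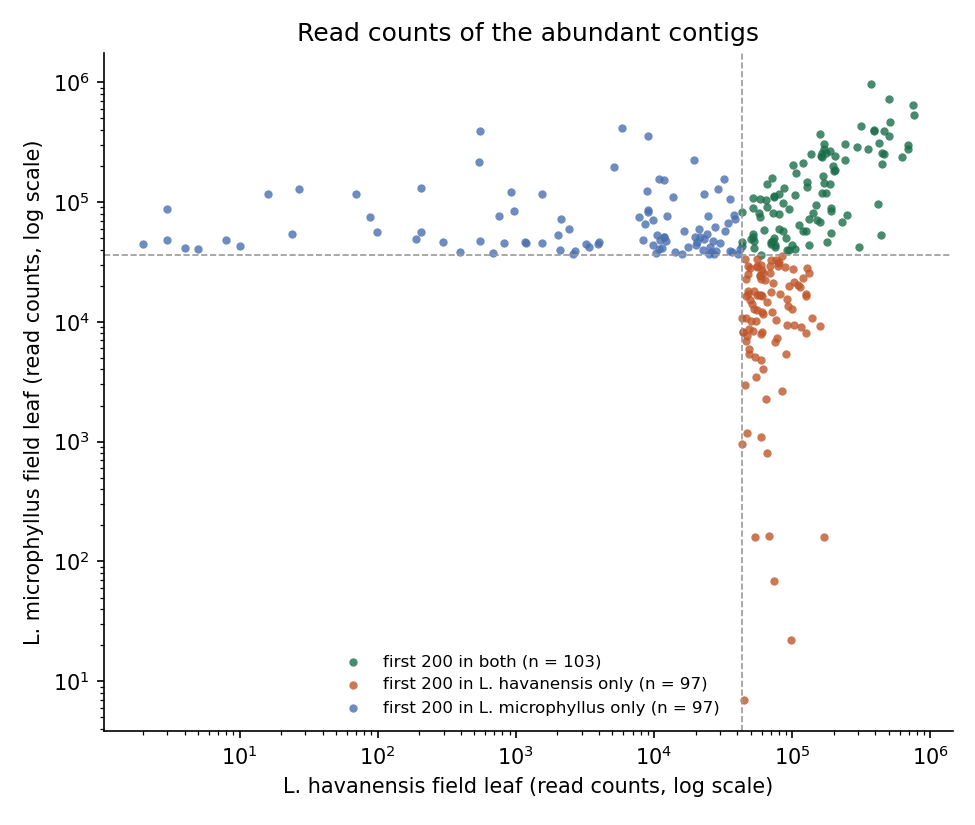
Read counts of the 297 contigs among the first 200 of either library, with L. havanensis on the x axis and L. microphyllus on the y axis, both on log scales. Each point is 1 contig and the dashed lines mark the count at rank 200 (43222 and 36212); the 103 shared contigs fill the upper right, and the contigs on the L. microphyllus list alone reach down to 2 counts in L. havanensis.

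A contig in the first 50 of one library was more often on both lists than one further down. The limit at rank 200 fixes part of this, since a contig near the top leaves the set only by a large difference in rank. All 10 highest contigs of L. havanensis and 8 of the 10 highest of L. microphyllus were on both lists. From rank 11 to 50 the numbers were 38 of 40 when ranked in L. havanensis and 33 of 40 when ranked in L. microphyllus. From rank 151 to 200 they were 12 of 50 in each ranking. The first 40 contigs of L. havanensis were all shared, and the contig at rank 41 was the first that was not, with 169318 counts in L. havanensis, against 160 in L. microphyllus. In L. microphyllus the contig at rank 7 was the first that was not shared, with 5819 counts in L. havanensis, against 414729 in L. microphyllus. The contig at rank 9 in L. microphyllus, with 549 counts in L. havanensis, against 394231 in L. microphyllus, was not shared either.

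**Figure D2:**
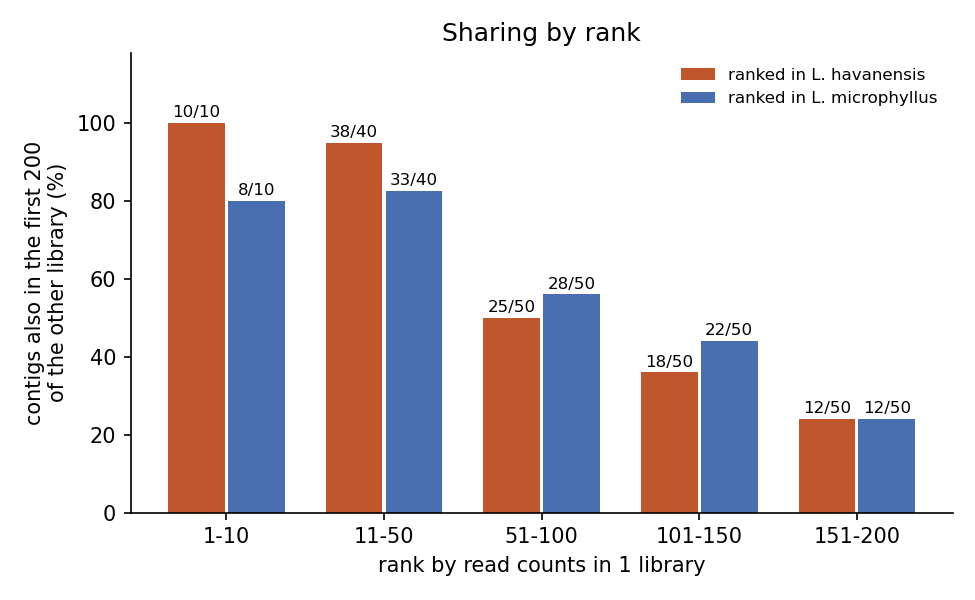
Percentage of contigs in each band of ranks that were also among the first 200 of the other library, for ranks in L. havanensis (left bar of each pair) and in L. microphyllus (right bar). Numbers above the bars are shared contigs over contigs in the band. The percentage is 100% and 80% for ranks 1 to 10 and 24% in both libraries for ranks 151 to 200. The limit at rank 200 fixes part of this fall.

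The shared percentage varied with the length of the list. It was 40% among the first 10 contigs (4 shared), 70% among the first 50 (35 shared), 55% among the first 100 (55 shared), and 51.5% among the first 200. Among the first 500 it was 45.2% (226 shared) and among the first 1000 it was 46.2% (462 shared). The 462 contigs shared by the first 1000 held 33.5% of the counts in L. havanensis, against 34.0% in L. microphyllus. Among the first 5000 it was 60.7% (3035 shared), and these contigs held 60.3% of the L. havanensis library and 60.0% of the L. microphyllus library. The shared contigs thus took less of the L. havanensis library than of the L. microphyllus library at the lengths up to 1000 given here, and slightly more of it at 5000.

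Few contigs lay at the rank limit. The last shared contig of L. havanensis, at rank 199, had 43300 counts there, against 43222 at rank 200 and 42741 at rank 201. In L. microphyllus the contig at rank 200 was shared and had 36212 counts, against 35758 at rank 201. In each library 1 shared contig had a count whose interval held the midpoint between the counts at ranks 200 and 201. Just outside, a contig with 84064 counts and rank 97 in L. havanensis was left out at rank 203 in L. microphyllus, with 35323 counts there. Another was left out at rank 210 in L. havanensis, where it had 41928 counts, although it was at rank 181 in L. microphyllus with 40140 counts.

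Ranks moved considerably within the set. The absolute difference between the rank in L. havanensis and the rank in L. microphyllus had a median of 27, with quartiles of 13 and 53. Of the 103 contigs, 24 lay within 10 ranks and 73 within 50 ranks. A further 20 were more than 50 ranks nearer the top in L. havanensis and 10 were more than 50 ranks nearer the top in L. microphyllus. No contig had the same rank in both, and 55 were nearer the top in L. havanensis, against 48 in L. microphyllus. Over the 103 contigs the counts of the 2 libraries had a Spearman rho of 0.66, and their log2 counts had a Pearson r of 0.70. All points share the same pair of libraries and the same contig lengths, and the rule itself bounds both ranks.

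**Figure D3:**
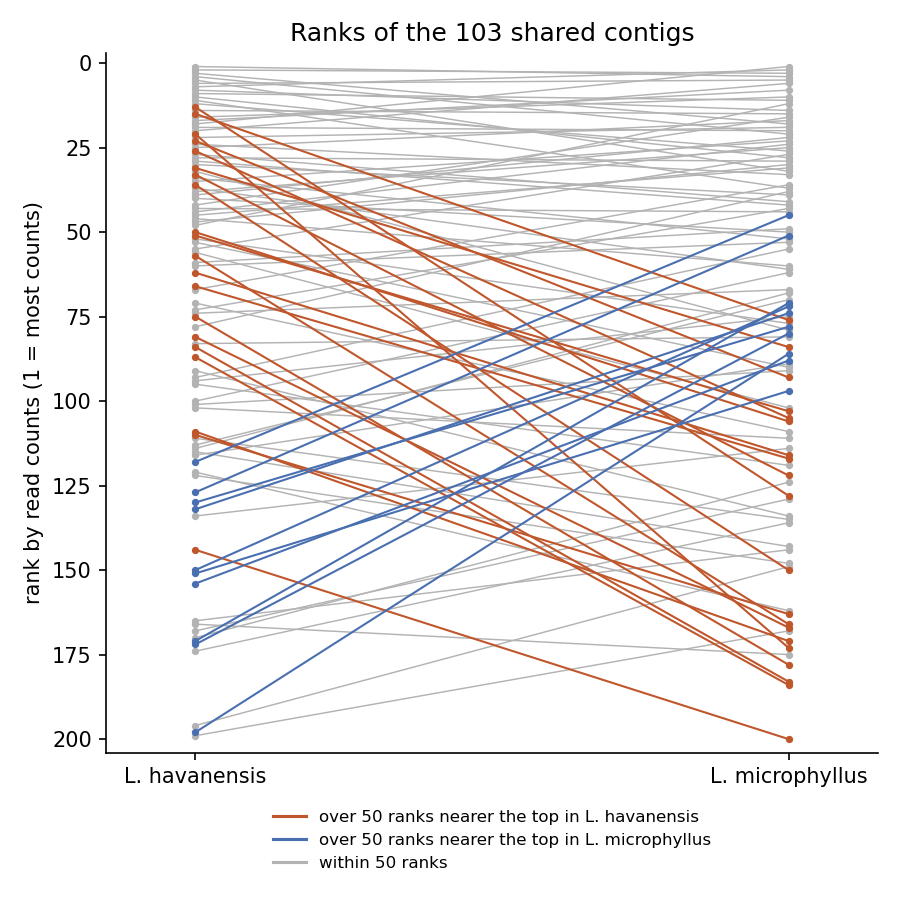
Rank of each of the 103 shared contigs in L. havanensis (left) and in L. microphyllus (right), with rank 1 at the top and 1 line per contig. Coloured lines mark the 20 contigs more than 50 ranks nearer the top in L. havanensis and the 10 more than 50 ranks nearer the top in L. microphyllus; the first 10 contigs of L. havanensis moved by at most 27 ranks.

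Several of the highest contigs stood high in both libraries. The contig at rank 1 in L. havanensis had 761529 counts there and 532738 in L. microphyllus, where it was at rank 4. It took 0.808% of the L. havanensis library and 0.698% of the L. microphyllus library. The contig at rank 2 in L. havanensis was at rank 3 in L. microphyllus, with 743528 and 641285 counts. The contig at rank 6 in L. havanensis was at rank 5 in L. microphyllus, with 510348 and 461929 counts. Thus 4 contigs were among the first 10 of both libraries, the fourth being at rank 7 in L. havanensis and rank 2 in L. microphyllus with 503460 and 728736 counts. The contigs at ranks 3, 4 and 5 in L. havanensis stood lower in L. microphyllus, at ranks 18, 21 and 32.

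A few contigs crossed most of the list. Lhav_v1_contig_871 had the longest move: it had 305023 counts in L. havanensis (rank 21) and 41806 in L. microphyllus (rank 173), a difference of 152 ranks. Lhav_v1_contig_834 had 437611 counts in L. havanensis (rank 13) and 52561 in L. microphyllus (rank 128). Moves of more than 100 ranks towards the top of L. havanensis were made by 5 contigs in all. In the other direction 1 contig moved by more than 100 ranks: it was at rank 198 in L. havanensis with 43475 counts and at rank 86 in L. microphyllus with 82979 counts.

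For ratios, each count was divided by its library's total times a TMM factor. This scaling assumes that contigs do not differ on weighted average between libraries once the most extreme ratios and abundances are left out. The median over all contigs need not be 0 under it. The log2 ratio is L. havanensis over L. microphyllus, so a positive value means higher in L. havanensis. The 103 contigs had a median log2 ratio of -0.80 (-0.95 to -0.49, the binomial limits of the median over contigs), against a median of 0.30 over the 50943 contigs whose counts in both libraries summed to at least 20. Of the 103 contigs, 81 were below 0 and 22 above. This split depended on the scaling: with total counts alone, which shifts every log2 ratio by 0.64, the median was -0.16 and 57 contigs were below 0 and 46 above. With that scaling the median over all contigs with at least 20 counts was 0.93. The set's median lay 1.10 below that of all these contigs with TMM and 1.09 below with total counts. The set was chosen by counts, and nothing particular to it is read from this distance.

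The ratios of the set spread less than those of all contigs. Their SD was 0.88, and their quartiles were -1.43 and -0.12. Over the 50943 contigs the SD was 3.04 and the quartiles were -1.22 and 2.08. Those contigs needed only 20 summed counts, whereas each shared contig had at least 43300 in L. havanensis and 36212 in L. microphyllus. Counting error is larger at low counts, so the 2 SDs are not at like counts. No scaling changes the spread within the set. The rule limits it, since a contig among the first 200 of both libraries can have a log2 ratio only from -5.43 to 3.45, a window 8.88 wide. The set filled 4.43 of that width, from -2.32 to 2.11.

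**Figure D4:**
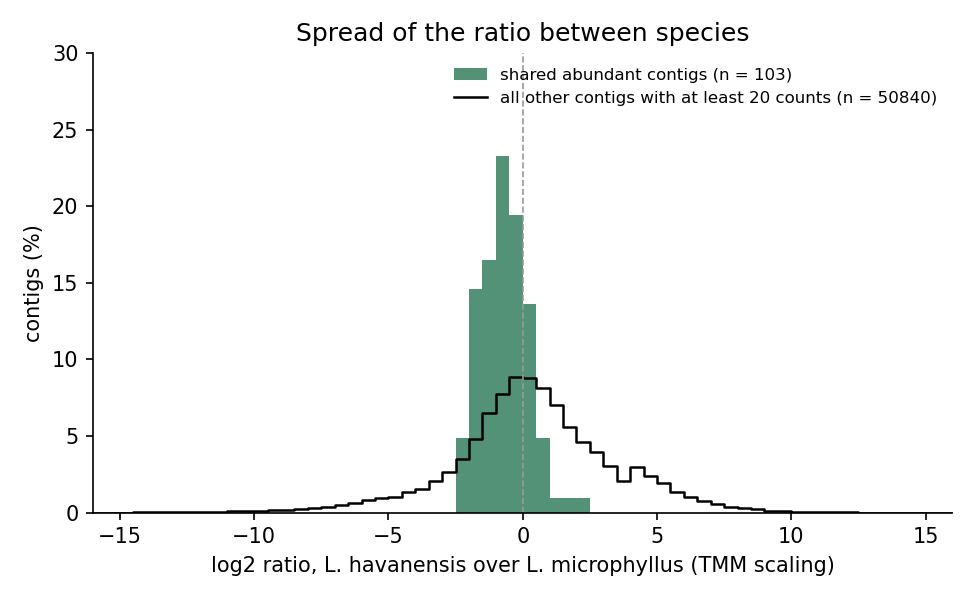
Distribution of the log2 ratio (L. havanensis over L. microphyllus) with TMM scaling, as the percentage of contigs per bin of 0.5, for the 103 shared abundant contigs (filled bars) and for the other 50840 contigs with at least 20 summed counts (line). The dashed line marks equal scaled counts; the filled bars run from -2.32 to 2.11 and 81 of the 103 contigs lie left of it, a number that falls to 57 with total-count scaling.

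Large differences were few within the set. The whole interval of the fold lay above 4 towards L. havanensis for 1 of the 103 contigs, where 15.9% of all contigs with at least 20 counts passed this limit. Towards L. microphyllus it lay above 4 for 5 contigs, where 14.1% of all passed. A fold within 2 in either direction was found for 63 contigs (61.2%), where 33.1% of all were within it. With total counts the numbers were 2, 0 and 78, where 24.1%, 10.2% and 30.7% of all contigs met these limits. The rule favours small ratios, so nothing is read from these counts about the set.

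The contigs at the ends of the range were these. Lhav_v1_contig_834 was at 3715 CPM, counts per 1000000 scaled counts, in L. havanensis, against 860 CPM in L. microphyllus, a 4.32-fold ratio (4.28 to 4.36) and a log2 ratio of 2.11. Lhav_v1_contig_871 was at 2589 CPM in L. havanensis, against 684 CPM in L. microphyllus, a 3.78-fold ratio (3.75 to 3.82). With total counts their log2 ratios were 2.75 and 2.56, so both were then past 4-fold.

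At the other end, Lhav_v1_contig_27 had 373212 counts in L. havanensis (rank 18) and 968390 in L. microphyllus, where it was the contig with the most counts. It was at 3168 CPM in L. havanensis, against 15848 CPM in L. microphyllus, 5.00-fold higher in L. microphyllus (4.98 to 5.02). Lhav_v1_contig_537 had 159695 counts in L. havanensis (rank 48) and 367114 in L. microphyllus (rank 12), and was 4.43-fold higher in L. microphyllus (4.41 to 4.46). With total counts the log2 ratios of these contigs were -1.68 and -1.50, so neither was then past 4-fold.

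A small net difference in share hid larger opposite ones. The shared contigs took 1.23 percentage points less of the L. havanensis library than of the L. microphyllus library. Behind this difference, 46 contigs had a larger share in L. havanensis, by 4.50 points in sum, and 57 had a larger share in L. microphyllus, by 5.73 points in sum. Lhav_v1_contig_27 took 0.396% of the L. havanensis library (0.395% to 0.397%) and 1.27% of the L. microphyllus library (1.265% to 1.271%). It and 2 others, at ranks 2 and 12 in L. microphyllus, made up 1.60 of the 5.73 points. The largest gain in L. havanensis was that of Lhav_v1_contig_834, with 0.464% of the L. havanensis library and 0.0688% of the L. microphyllus library.

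The composition of the set overlapped more than that of the whole libraries. When the counts of the set were put at 100% in each library, 77.2% lay in the part common to both, the sum over contigs of the smaller of the 2 percentages. Over all 58990 contigs the same sum was 61.2%, of which the set gave 16.9 percentage points. The rule picks contigs that are high in both, so a larger overlap in the set follows in part from it.

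Among the shared contigs, the spread of ratios was smallest for the least abundant ones. By mean share of both libraries, the 34 highest contigs had a log2 ratio SD of 0.94 and a median of -0.93 (-1.44 to -0.47). The next 34 had an SD of 0.98 and a median of -0.76 (-1.13 to -0.06). The last 35 had an SD of 0.71 and a median of -0.60 (-0.95 to -0.27). The limits of these medians describe contigs of the same pair of libraries and are not a test between the groups of contigs. With total counts the medians were -0.29, -0.12 and 0.04, so that of the last 35 changed sign. Contigs near the limit in both libraries cannot differ much without leaving the set, so the smaller spread of the last 35 is partly fixed by the rule.

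The contigs on 1 list alone were not placed alike in the other library. The 97 on the L. havanensis list alone had ranks from 203 to 41019 in L. microphyllus, with a median of 708. The 97 on the L. microphyllus list alone had ranks from 210 to 55672 in L. havanensis, with a median of 1721. With TMM, the interval of the fold lay above 4 in the direction of their own list for 28 of the 97 L. havanensis contigs and 81 of the 97 L. microphyllus contigs. Of all contigs with at least 20 counts, 15.9% and 14.1% passed in these directions. With total counts the numbers were 50 and 68, where 24.1% and 10.2% of all contigs passed. The lowest count in the other library was 2 for the L. microphyllus list and 7 for the L. havanensis list. Each is the count of 1 contig, and the lists are not compared by it. Each list was picked by its own library's counts, which fixes the direction, and with 1 library of each species the difference between the lists has no test.

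The rule did not use the number in a contig's name directly, but this number goes with the counts that the rule used. It was low for the shared contigs. It ran from 15 to 5451 with a median of 537, where the contigs with at least 20 counts had a median of 26177. A number up to 1000 was carried by 73 of the 103 shared contigs (70.9%), by 31 of the 97 contigs on the L. havanensis list alone and by 16 of the 97 on the L. microphyllus list alone. Over all contigs with at least 20 counts it was 1.95%. By mean share of both libraries, all of the 34 highest shared contigs carried a number up to 1000. So did 26 of the next 34 and 13 of the last 35. The sources used here do not say what orders the numbers. They come from an assembly of L. havanensis reads. Across the 50943 contigs the number had a Spearman rho of -0.72 with the L. havanensis counts and of -0.65 with the L. microphyllus counts. All contigs share both libraries. The counts chose the set, so its low numbers follow in part from the rule, and nothing particular to the set is read from them.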

How the data were processed

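Per the labels' protocols, leaves from the field were stabilised, RNA was extracted with TRIzol and DNase-treated, and strand-preserving polyA libraries were prepared. Per the series' design text, an assembly of in vitro L. havanensis reads was the reference for both species. No source used here names the aligner, the counter or the handling of reads that match several contigs. Per the file headers, the deposited values are counts of reads, and they are whole numbers that were not normalized. L. microphyllus reads can be lost where its sequence differs from the reference, and near-identical contigs can share or split reads.

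The 2 tables were joined on contig name and ranked by count, ties by name. TMM factors (edgeR 4.0.16 in R 4.3.3; contigs with at least 20 summed counts) came to 1.25 in L. havanensis, against 0.80 in L. microphyllus. For log2 ratios 1 count, scaled by library size, was added. Shares and folds have exact Clopper-Pearson 95% intervals. Alternatives were other scalings (DESeq2 1.42.0 for median of ratios), count minimums, list lengths, thinning, and the point estimate of the fold. The calls were tested on simulated data. Printed by identifier are the 2 contigs with the highest and the 2 with the lowest log2 ratio; some others, given by rank, were chosen after their values were seen. The members and rules were chosen with earlier results of these data known. Leaf marker lists could not be applied.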

Additional observations from a re-analysis of the deposited data

How the results depend on the processing

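No paired analysis was possible because each group has 1 library, and no replicate could be left out. With lists of 100 and of 500 contigs in place of 200, the shared contigs numbered 55 and 226, held 16.4% and 26.9% of the counts in L. havanensis and 18.5% and 27.9% in L. microphyllus, had a median absolute rank difference of 14 and 61.5, a log2 ratio SD of 0.75 and 0.92, and 32 and 143 contigs within 2-fold. Above 4-fold towards L. havanensis there were 0 contigs of the list of 100, and towards L. microphyllus 2 and 13. Without the 10 most abundant contigs of each library the shares were 14.7% in L. havanensis, against 15.75% in L. microphyllus. The median log2 ratio was below 0 under every scaling run: -0.16 with total counts, -0.30 with upper-quartile scaling, -0.94 with median-of-ratios scaling, and -0.077 with the summed counts of the set, an alternative chosen after seeing the data. With total counts the binomial limits of the median were -0.30 to 0.16 and held 0, so its sign is not read as stable. Contigs above 4-fold towards L. havanensis numbered 2 with total counts, with upper-quartile scaling, with a minimum of 100 summed counts and with the set's own sum, and 0 with median-of-ratios scaling. Towards L. microphyllus they numbered 0 with total counts, upper-quartile scaling and the set's own sum, 1 with a minimum of 100 summed counts, and 7 with median-of-ratios scaling. Scaling only shifts all log2 ratios together. Of all contigs with at least 20 counts, 15.9% passed 4-fold towards L. havanensis with TMM and 24.1% with total counts. Towards L. microphyllus 14.1% and 10.2% passed, and 33.1% and 30.7% were within 2-fold. Such shares are not given for the other settings, so nothing is read about the set from these changes in number. Of the values under these alternatives, 29 moved and 31 did not. Some of these outcomes were fixed in advance, so the tally does not measure stability. Scaling cannot change the SD, and a shorter or longer list can only lower or raise the number and share of shared contigs. A share or median moved if it left the 95% interval of its main value, a number of contigs if it changed by over 1.5 times, and the SD if it changed at all beyond rounding. With the L. havanensis library thinned to as many counts as the other, the same 103 contigs were found. Depth limits little at these counts, and variation between plants, which was not measured, is not covered.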

Other observations

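Among the 103 shared contigs, 8 pairs carried consecutive numbers. The log2 ratios of the 2 contigs of a pair differed by 0.11 to 2.69, with a median of 1.07. In the pair that differed most, Lhav_v1_contig_27 had a log2 ratio of -2.32, and its neighbour in number, at rank 4 in L. havanensis and rank 21 in L. microphyllus, had one of 0.37. Whether consecutive numbers mark related sequences was not tested.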
